A study of Homo sapiens with 3 samples.

Results

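The BTG and TOB genes encode a small family of antiproliferative proteins, and their mRNA levels were compared in HepG2 cells, a human liver cancer line, after treatment with etoposide. Members were chosen by name: every non-control probe whose gene name on the array was BTG1, BTG2, BTG3, TOB1 or TOB2 was taken. Each gene had 1 probe, spotted once, so the family was 5 of the 34118 probes and 5 of the 27269 gene names measured. Etoposide traps topoisomerase II on DNA and leaves double-strand breaks. The cells of 1 array were left without drug, those of another received 10 μM etoposide and those of the last received 100 μM etoposide, in each case for 30 h in the same medium with serum. The study chose 10 μM for a senescence-like arrest and 100 μM for apoptosis, and the comparison between doses asked which genes separate these states. There was 1 array per condition, so the fold changes describe these arrays alone and carry no test. The arrays cover a single transformed line, and the control is named as solvent-treated in the study's text and as untreated in the labels.

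Proteins of this family share an N-terminal BTG domain that binds the CAF1 deadenylases CNOT7 and CNOT8 of the CCR4-NOT complex, the main enzyme that shortens the poly(A) tails of cytoplasmic mRNAs. BTG1 and BTG2 are small proteins that also contact the arginine methyltransferase PRMT1 and the poly(A)-binding protein PABPC1. TOB1 and TOB2 have longer C-terminal regions that bind PABPC1, and so bring the deadenylase to the tail. BTG2 is long known as a gene induced by DNA damage, and BTG3 has been described as a protein that binds E2F1. Raised levels of these proteins slow entry into S phase in many cell types.

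Between 19835 and 20148 probes per array were well above background by the scanner software, no spot was saturated, and each member was well above background on all 3 arrays. Signals were scaled to the 75th percentile of each array, which was a signal of 514 in control cells, 537 at 10 μM and 433 at 100 μM. All 10 hepatocyte markers examined, such as ALB and AFP, were well above background on every array. Of 4 fibroblast markers, PDGFRB was above background on some arrays and COL1A1, COL1A2 and THY1 on none. By their brightest probes, the leukocyte markers PTPRC and CD3E and the endothelial markers PECAM1 and CDH5 were also above background on every array. The other probes of PTPRC were not above background on any array, and another probe of PECAM1 was so in control cells only. The part of other cells in the results was not tested.

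BTG2 was the member with the largest fold change over control. Its signal, before scaling, was 212 in control cells, 2241 at 10 μM and 1214 at 100 μM. Both treated arrays were thus far above the control array, and the level at 10 μM was the higher of the pair. After scaling, BTG2 was 10.1-fold higher at 10 μM than in control cells, with a range of 9.11 to 11.3 at 2 SD of the spot noise. This noise was taken from probes of like signal spotted 10 times on the same array, and it leaves out differences between cultures. Of the 16698 genes with a fold change at 10 μM, 18 (0.108%) were at least as high. At 100 μM it was 6.81-fold higher than in control cells (6.06 to 7.65), and 31 of 16891 genes (0.184%) were at least as high. Between the doses BTG2 differed by 1.49-fold (1.36 to 1.63), which did not reach the 2-fold threshold the study used there. The BTG2 probe lies at chr1:201545077-201545136 (hg18, plus strand).

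**Figure D1:**
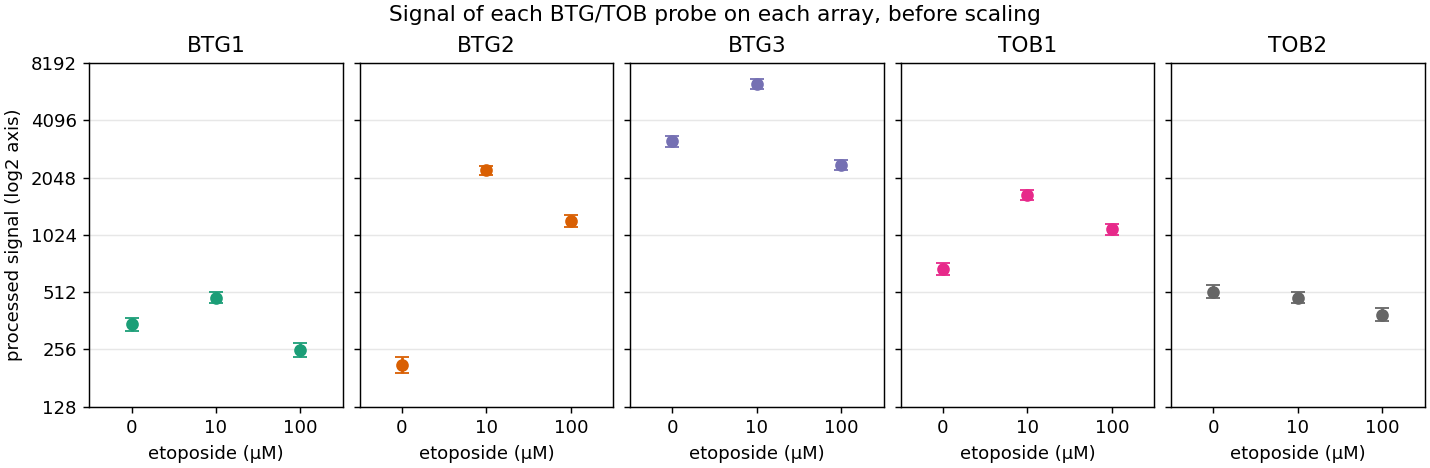
Processed signal of each member's probe on each of the 3 arrays before scaling (vertical log2 axis) against the etoposide dose in μM. Points are single spots and bars are 2 SD of the spot noise. BTG2 goes from 212 in control cells to 2241 at 10 μM, and BTG3 is highest at 10 μM at 6375.

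TOB1, which links the deadenylase to PABPC1, showed the same order of the arrays at smaller size. Its signal was 676 in control cells, 1659 at 10 μM and 1096 at 100 μM. TOB1 was 2.35-fold higher than control at 10 μM (2.15 to 2.57) and 1.93-fold higher at 100 μM (1.75 to 2.12), so that the second value lay within the spot noise of 2-fold. The doses differed by 1.22-fold (1.12 to 1.33). The TOB1 probe lies at chr17:46295497-46295556 (hg18, minus strand).

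BTG3 separated the doses. Its signal was 3182 in control cells, 6375 at 10 μM and 2391 at 100 μM. The array at 10 μM stood above the other arrays, which were within 1.12-fold of each other after scaling. BTG3 was 1.92-fold higher than control at 10 μM (1.76 to 2.10) and 0.893 times control at 100 μM (0.815 to 0.978). The level at 10 μM was 2.15-fold above the level at 100 μM (1.97 to 2.35), and 516 of 16731 genes (3.08%) were at least as high in that comparison, although the lower end of the range was under 2-fold. The BTG3 probe lies at chr21:17887931-17887990 (hg18, minus strand).

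BTG2 was past the study's threshold of 3-fold over control, and BTG3 was past 2-fold between the doses. The study used its 2-fold threshold only on genes raised more than 3-fold at 10 μM, and BTG3 was 1.92-fold higher there. The promoters of BTG2 and BTG3 are shown so that the sequence before their start sites can be read beside these values. They are the 250 bases before the annotated start, on the gene's own strand, from RefSeq (GRCh38.p14), at chr1:203305269-203305518 (+) for BTG2 and chr21:17612902-17613151 (-) for BTG3. Capitals mark matches to the motifs named after the sequences, on either strand.
BTG2: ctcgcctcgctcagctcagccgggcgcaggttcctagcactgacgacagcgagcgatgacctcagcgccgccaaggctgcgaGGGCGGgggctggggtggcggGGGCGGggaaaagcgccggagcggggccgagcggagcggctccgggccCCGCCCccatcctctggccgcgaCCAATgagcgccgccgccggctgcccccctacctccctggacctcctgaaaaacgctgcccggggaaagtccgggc
BTG3: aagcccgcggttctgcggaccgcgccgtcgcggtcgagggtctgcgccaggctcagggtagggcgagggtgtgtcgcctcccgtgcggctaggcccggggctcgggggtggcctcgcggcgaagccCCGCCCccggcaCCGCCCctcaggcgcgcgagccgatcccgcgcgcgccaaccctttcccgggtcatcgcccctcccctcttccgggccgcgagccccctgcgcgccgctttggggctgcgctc
Motifs were searched on both strands in the 300 bases from 250 before to 50 after the start, and no motif searched contains another. Positions count from the start site. GGGCGG, the GC box, occurred 3 times in the window of BTG2 and 3 times in that of BTG3, once of these after the start and so not printed, while 45.0% of 35116 promoters of the same length held it. GGGCGG also occurred in the windows of BTG1 and TOB2 and in 1 of the TOB1 windows. CCAAT occurred in the window of BTG2, at -76, in that of BTG1, at -87, and in 1 of the TOB1 windows, at -186. Of all promoters, 34.6% held CCAAT. The E-box CACGTG was found in none of the member windows, against 7.26% of all promoters. TATAAA was found at BTG1 alone, at -33, against 11.5% of all promoters. The window of BTG2 was 73.3% G and C and that of BTG3 77.3%, against a median of 58.7% over all promoters. TOB1 has 2 annotated start sites, whose windows were 41.3% and 78.7% G and C.

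BTG1, the closest relative of BTG2 in the family, had the BTG3 order, with smaller differences at 10 μM over control and between the doses. Its signal was 347 in control cells, 480 at 10 μM and 255 at 100 μM. BTG1 was 1.33-fold higher than control at 10 μM (1.20 to 1.47), 0.874 times control at 100 μM (0.777 to 0.983) and 1.52-fold higher at 10 μM than at 100 μM (1.36 to 1.69). TOB2, the paralog of TOB1, had signals of 516 in control cells, 478 at 10 μM and 389 at 100 μM. It was 0.888 times control at 10 μM (0.803 to 0.983) and 0.895 times control at 100 μM (0.802 to 1). The doses did not differ beyond the spot noise for TOB2, at 0.992-fold (0.895 to 1.10). The BTG1 and TOB2 probes lie at chr12:91061679-91061738 and chr22:40159691-40159750 (hg18, minus strand).

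**Figure D2:**
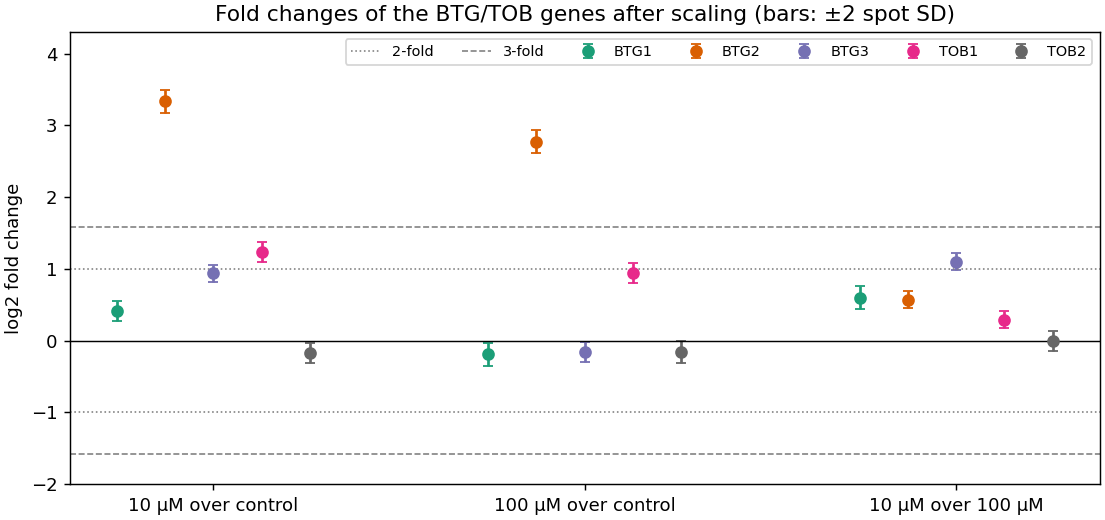
Scaled log2 fold changes of the 5 members in the 3 comparisons, with bars of 2 SD of the spot noise. BTG2 lies at 3.34 and 2.77 over control at 10 and 100 μM, while TOB2 lies at -0.17 and -0.16.

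Counted against the study's threshold of 3-fold over control, 1 of 5 members (BTG2) was higher at 10 μM and 0 were lower, where 1.29% of all genes with a fold change were higher and 0.359% lower. At 2-fold, 2 members (BTG2 and TOB1) were higher and 0 lower at 10 μM, against 3.37% and 1.58% of all genes. At 100 μM, 1 member (BTG2) was more than 3-fold higher and 0 were lower, against 1.85% and 1.65% of all genes, and the counts at 2-fold were again 1 and 0, against 6.76% and 3.65%. Between the doses, 1 member (BTG3) was more than 2-fold higher at 10 μM and 0 were higher at 100 μM, against 3.65% and 3.94% of all genes. The median log2 fold change of the 5 members was 0.94 at 10 μM over control, where the median of all genes was -0.04. It was -0.16 at 100 μM over control, where all genes had 0.09, and 0.57 between the doses, where all genes had -0.10. These medians describe 5 genes chosen by name, and the control array is shared by both comparisons over control.

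**Figure D3:**
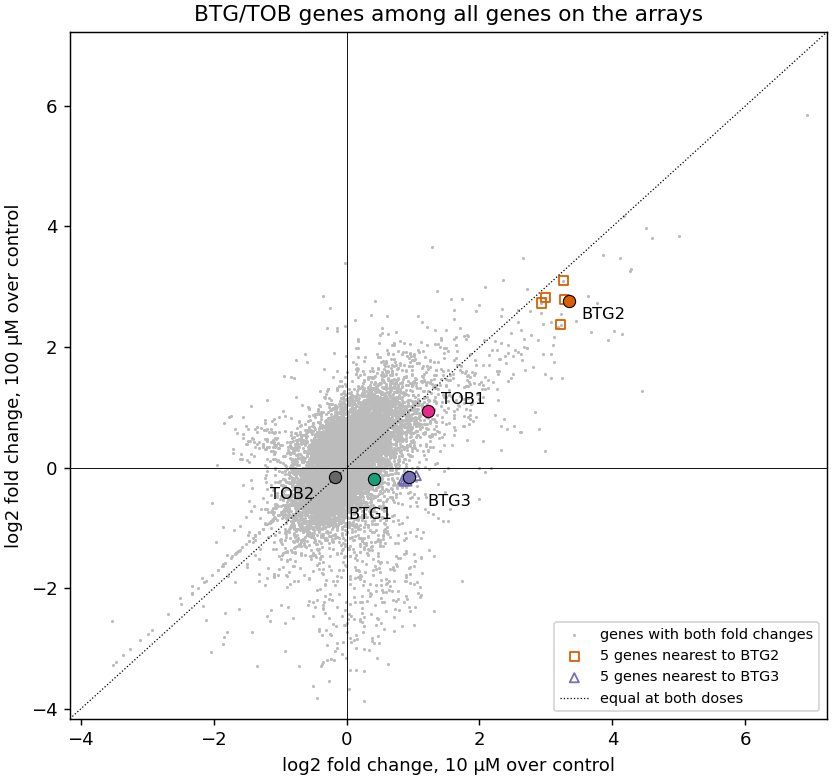
Log2 fold change over control at 100 μM against that at 10 μM for all genes with both values (grey), the 5 members (filled) and the genes nearest to BTG2 and BTG3 (open). BTG2 lies at 3.34 and 2.77, and BTG3 lies below the line of equal change, at 0.94 and -0.16.

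The choice of scaling shifted the values at 100 μM. Without any scaling the median of all genes moved by -0.24 on the log2 scale at 100 μM over control and by 0.31 between the doses, with median scaling by -0.28 and 0.26, and with spike-in controls by -0.16 and 0.22. BTG2 stayed between 8.09- and 10.6-fold at 10 μM and between 5.52- and 7.13-fold at 100 μM over the 14 settings tried. BTG3 between the doses ranged from 2.04- to 2.67-fold, and TOB1 at 100 μM from 1.58- to 2.02-fold. TOB2 between the doses was below 0 on the log2 scale in 11 settings and above 0 in 3.

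**Figure D4:**
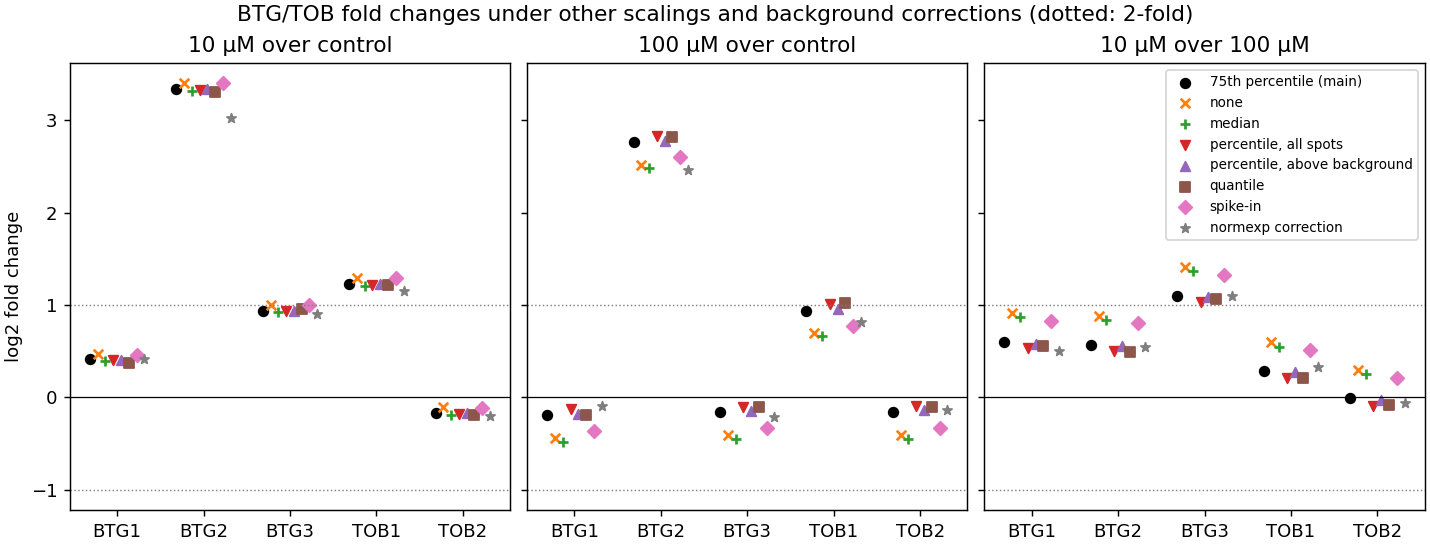
Log2 fold change of each member under each of the scalings, for the 3 comparisons. BTG2 keeps its place above the other members at both doses over control, and BTG3 is past 2-fold between the doses under each scaling.

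The named genes whose pattern was nearest to BTG2, by distance between the pair of log2 fold changes over control among 12047 genes, began with EBI3, at a distance of 0.06. EBI3, a subunit of interleukins, was 9.73-fold higher at 10 μM and 6.90-fold higher at 100 μM. It was followed by CD3D at 0.35, CDKN1A at 0.36, CDC42BPG at 0.41 and C9orf169 at 0.42. CDKN1A encodes the CDK inhibitor p21 and was 7.94-fold and 7.07-fold higher. CD3D, a T-cell receptor subunit, was 9.61-fold and 8.60-fold higher, while the leukocyte marker PTPRC had signals of 257, 131 and 288 in control cells, at 10 μM and at 100 μM and CD3E, of the same receptor complex as CD3D, 46.8, 34.6 and 52.9. The genes nearest to BTG3 were DCAF15 at 0.04, NFKBIL2 at 0.06, PDLIM3 at 0.09, NETO2 at 0.10 and NUP62CL at 0.11. Of these, DCAF15 was 1.89-fold higher at 10 μM and 0.914 times control at 100 μM. The distance says only that the values lie close together on these arrays.

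The partners of the family were counted against the same 2-fold threshold, which 3.37% of all genes passed upward and 1.58% downward at 10 μM, and 6.76% and 3.65% at 100 μM. Of the 12 listed genes of the CCR4-NOT complex, all 12 were well above background on all arrays and none was past 2-fold in any comparison. Their log2 fold changes over control ran from -0.41 to 0.37 at 10 μM, with a median of -0.12, and from -0.59 to 0.28 at 100 μM, with a median of -0.19. CNOT7, a direct partner of the BTG domain, had signals of 1759 in control cells, 1442 at 10 μM and 982 at 100 μM, and was 0.785 and 0.663 times control. Its other probe gave log2 values of -0.24 and -0.41. CNOT8, its paralog, was 0.920 and 0.878 times control, and the scaffold CNOT1 was 0.892 and 0.850 times control. No gene of the complex passed 2-fold under any of the 7 scalings. Its median stayed below 0 in all of them at both doses over control, from -0.14 to -0.06 at 10 μM and from -0.48 to -0.12 at 100 μM. The median of all genes was -0.04 at 10 μM and 0.09 at 100 μM under the main scaling. The other scalings moved that median too, by -0.02 to 0.06 at 10 μM and by -0.28 to 0.07 at 100 μM.

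Of 8 other deadenylases, 7 gave a fold change and none passed 2-fold, while NOCT was not above background. Under 3 of the 6 other scalings 1 of them, TOE1, passed 2-fold between the doses. Among 10 genes of poly(A)-binding proteins and their partners, 1 of the 9 with a fold change at 10 μM, PABPC5, was higher. Its signals were 3.99 in control cells, 72.3 at 10 μM and 4.46 at 100 μM, and it was above background at 10 μM only, so the fold is at least 3.55 over control and at least 2.69 over 100 μM. The other probe of PABPC5 was not above background on any array. PABPC1, the main cytoplasmic poly(A)-binding protein, was 0.879 and 0.672 times control. None of these genes was more than 2-fold lower at 100 μM, and 1, PABPC4, was under 3 of the other scalings by its brighter probe. The other probe of PABPC4 gave a log2 value of -0.61 at 100 μM, where it was not above background. Of 16 genes of decapping and 5' to 3' decay, none passed 2-fold at 10 μM, while 2, DCPS and LSM6, were lower at 100 μM, where 3.65% of all genes were. Without scaling or with spike-in scaling 1 gene, DCP1B, was past 2-fold at 10 μM. At 100 μM LSM6 was 0.441 times control. DCPS, the scavenger decapping enzyme, was 0.497 times control at that dose, so that it passed 2-fold narrowly and not under 3 of the 6 other scalings. LSM3, another subunit of the LSM ring, was 2.60-fold higher at 10 μM than at 100 μM by its brighter probe, and its other probe was not above background.

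Among 13 binding partners outside the deadenylases, 11 gave a fold change, since HOXB9 and CPEB2 were not above background. None passed 2-fold at 10 μM and 2 were lower at 100 μM, E2F1 and CHEK1, where 3.65% of all genes were. E2F1, the S-phase transcription factor that BTG3 binds, had signals of 485 in control cells, 936 at 10 μM and 93.7 at 100 μM. It was 1.85-fold higher at 10 μM and 0.229 times control at 100 μM, 8.06-fold apart between the doses. CHEK1, a checkpoint kinase, had signals of 554, 572 and 153 in the same order and was 0.989 and 0.328 times control, with 3.01-fold between the doses. PRMT1, the methyltransferase partner of BTG1 and BTG2, was 0.567 and 0.527 times control. It was more than 2-fold lower at 100 μM without scaling, with median scaling or with spike-in scaling. Under these scalings 4 binding partners were lower at that dose. Of 6 listed regulators and targets of the family, none passed 2-fold, and 1, FOXO1, was more than 2-fold lower at 100 μM without scaling or with median scaling.

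**Figure D5:**
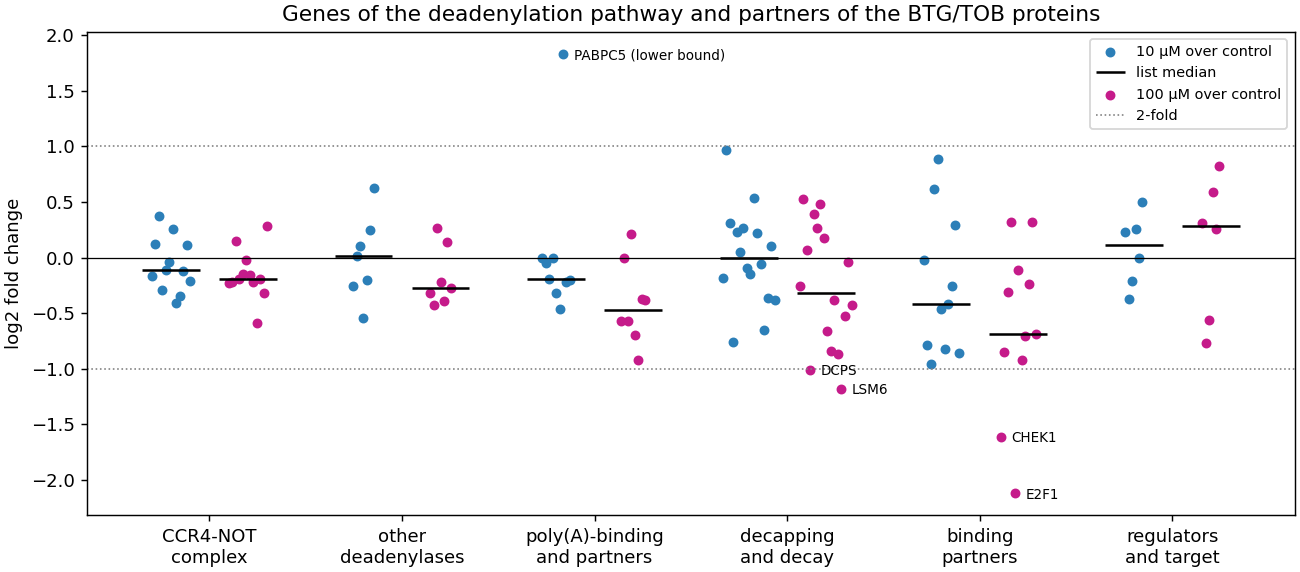
Scaled log2 fold changes over control of the genes in the 6 partner lists, at 10 μM (blue) and at 100 μM (magenta), with list medians as bars and 2-fold as dotted lines. PABPC5 is a lower bound. CHEK1 and E2F1 lie lowest at 100 μM, E2F1 at 0.229 times control.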

How the data were processed

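RNA of HepG2 cells was labelled with Cy3 and hybridised to 1-color Agilent arrays, 1 array per condition. The authors deposited the scanner output with the intensity of each spot, background-subtracted and detrended by Feature Extraction 10.7.3.1, and not scaled between arrays, and a table of the whole series with equal values at all 44495 spots. Non-control spots without the outlier flag were averaged per probe on the log2 scale, and the 75th percentile over probes (each counted once) was subtracted. A gene was its brightest probe. A fold change needed the brighter condition well above background. The floor of an array was its dimmest signal that was well above background (19.5 to 22.7). A value not well above background was raised to the floor where it lay below it, which gives a lower bound. The spot noise came from the 50 repeated probes nearest in signal among those spotted 10 times. It covers spots of 1 array, not cultures, so the number of arrays limits the precision. Named genes were the members, list genes past 2-fold in any comparison, CNOT1, CNOT7, CNOT8, PABPC1 and PRMT1, and the 5 genes nearest to each member past 3-fold over control or 2-fold between the doses (BTG2 and BTG3). TOE1, DCP1B, PABPC4, FOXO1, LOC222699 and BANP were chosen after their values were seen. Some items that this rule or the marker lists select are not reported here. The members and lists were chosen with earlier results of these data known. Alternatives covered scaling, background correction (limma 3.58.1, normexp with an offset of 50), filters, probes and thresholds. The steps were tested on simulated data. Python 3.11.15, pandas 2.3.3, numpy 2.4.6 and R 4.3.3 were used. Probe positions are those of the files.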

Additional observations from a re-analysis of the deposited data

How the results depend on the processing

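Of 195 values of the 5 members under 13 alternatives, 44 shifted beyond the spot noise and 0 changed the direction of a value past the threshold. The count of members past the threshold was 3 at 1.5-fold and 2 at 2-fold for 10 μM over control, 2 at 1.5-fold for 100 μM over control, and 2 at 1.5-fold and 0 at 4-fold between the doses. The share of all genes past 1.5-fold and past 4-fold is not given here, so these counts only describe how the threshold changes them. At 2-fold, 100 μM over control gave 2 members using the all-spot percentile and 2 after quantile normalization, since TOB1 then passed, and 10 μM over control gave 3 in place of 2 without scaling, since BTG3 then passed. The median of the members at 100 μM over control moved to -0.41 without scaling, -0.45 with median scaling and -0.33 with spike-in scaling. Between the doses it moved to 0.88, 0.84 and 0.80 in the same order, and to 0.50 using the all-spot percentile, 0.49 after quantile normalization and 0.50 after normexp; the cause was not tested. Of 72 list counts under other thresholds 17 moved, and of 216 under other scalings, an alternative chosen after seeing the data, 22 moved. DCPS was not past 2-fold with 3 of the scalings. Without scaling, with median scaling and with spike-in scaling, 4 decapping genes and 4 binding partners were lower at 100 μM. The median of all genes moved by -0.24, -0.28 and -0.16 in the same order. The share of all genes past 2-fold under these scalings is not given here. No paired analysis was possible because there is only 1 array for each condition, so no replicate could be left out.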

Other observations

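Related probes on the arrays gave these values. BTG4, a family gene expressed mainly in germ cells, was not well above background on any array, with signals of 4.33 in control cells, 4.95 at 10 μM and 4.99 at 100 μM. The TOB2 pseudogene LOC222699 had signals of 44.1, 70.7 and 75.2 in the same order and was 1.54-fold and 2.03-fold higher than control, whereas TOB2 itself was 0.888 and 0.895 times control. BANP, the BTG3-associated nuclear protein, had 2 probes, which gave 0.799 and 0.859 times control at 10 μM and disagreed in direction at 100 μM, at 0.859 and 1.18 times control.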
